A study of Mus musculus with 9 samples.

Results

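The genes described here are 27 mouse genes of GABA signalling: 16 subunits of GABA-A receptors, both subunits of the GABA-B receptor, 5 genes that make, load, take up or break down GABA, and 4 genes of the inhibitory scaffold and of receptor trafficking. They were taken by name from the 48709 genes in the count files. The naming rule uses no measured value, although the list was drawn up with earlier results of these data known, and it does not hold every GABA-A subunit. RNA had been sequenced from NeuN-stained, sorted neuronal nuclei of frozen mouse hippocampi, with 3 libraries in each of 3 groups. WT mice were C57BL/6J and received vehicle. The vehicle-treated Tg4-42 mice and the caffeine-treated Tg4-42 mice were homozygous for a transgene in which the murine Thy1 promoter drives human Aβ4-42 fused to the signal peptide of murine TRH in neurons, also on C57BL/6J. Caffeine was given at 300 mg/l in the drinking water from 2 months of age for 4 months, so that all groups were 6 months old. The labels name the treatment only for the caffeine group, so the vehicle groups rest on the genotype labels and the study's methods, and no caffeine-treated WT mice were analysed here. For the preparation of nuclei the labels mention 6 mice in a group, and the methods 3 for sequencing. Where libraries are not from separate mice, the p-values measure only the spread between these samples.

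GABA is the main inhibitory transmitter of the adult brain. In interneurons it is made from glutamate by the decarboxylases Gad1 and Gad2, loaded into synaptic vesicles by the transporter Slc32a1, and broken down by the transaminase Abat. GABA-A receptors are chloride channels built from subunits whose mix sets their place and kinetics: receptors with the delta subunit or with alpha 5 lie largely outside synapses, and the anchoring protein gephyrin (Gphn) holds synaptic receptors under the terminal. GABA-B receptors are pairs of Gabbr1 and Gabbr2 coupled to G proteins, and neither works well alone.

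The libraries held 9342945 to 16376922 counts. Levels are given as CPM (TMM-scaled counts relative to the library total). On unscaled library totals, 3 counts, taken as the floor of detection, lay between 0.183 and 0.321 CPM, a floor for counting error alone. Libraries of a group correlated at 0.982 to 0.989 in log2 CPM and their counts differed beyond sampling noise (chi-square of 8.76 to 20.6 per gene). By these correlations no library stood apart from its group. Single genes could still differ widely, as with Ttr at 2.16, 108 and 132 CPM in the vehicle-treated Tg4-42 libraries. The summed level of 6 pan-neuronal genes was 6512 to 8998 CPM and Rbfox3, which encodes NeuN, was present in every library, while 10 astrocyte markers summed to 435 to 639 CPM and 10 oligodendrocyte markers to 273 to 534.9, so the sorted nuclei also carried glial RNA. Differences were tested with edgeR's quasi-likelihood test on the 17361 genes that passed the count filter, adjusted over all of them by the Benjamini-Hochberg method, and called at an adjusted p under 0.05.

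Several members sit in clusters of receptor genes (mm10). On chromosome X, Gabre (72255999 to 72274803, minus strand), Gabra3 (72432681 to 72656848, minus strand) and Gabrq (72825178 to 72842602, plus strand) follow each other. On chromosome 5, Gabrg1, Gabra2, Gabra4 and Gabrb1 lie between 70751047 and 72149037, and Gabra4 and Gabrb1 start head to head with 0.756% of the Gabra4 exon bases shared. Gabra6 and Gabrb2 are neighbours on chromosome 11, and Gabrg3 and Gabra5 on chromosome 7. Slc32a1 (chromosome 2, 158610767 to 158615748, plus strand, 2 exons, 2797 bases) shares 24.9% of its exon bases with the antisense gene Gm14205, which had 0 counts in all 9 libraries. The strand setting of the counting is not given, so how reads in the shared bases were assigned is not known. The 0 counts therefore do not show that Gm14205 was silent, and the Slc32a1 level may be affected. Gabarapl1 shares 28.3% with an opposite-strand transcript that had 20 to 51 counts. How reads in those shared bases were assigned is likewise not known, and the Gabarapl1 level may be affected. Gabarap, Gabarapl1 and Gabarapl2 are related sequences, and reads may be split between relatives of that family.

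The 4 members below, a vesicular transporter and 3 receptor subunits, are among 7 with lower values in every caffeine-treated library than in every vehicle-treated Tg4-42 library, and their upstream sequences are shown for that reason. Each is the 250 bases before a RefSeq start of the gene (assembly GRCm38.p6), read 5′ to 3′ on the gene's strand. Of 2 starts listed for Gabra3 and 3 for Gabrb2, the first listed was taken. The windows were Slc32a1 at chr2:158610508-158610757 (plus), Gabra3 at chrX:72656920-72657169 (minus), Gabrb2 at chr11:42420190-42420439 (plus) and Gabrq at chrX:72824928-72825177 (plus). Capitals mark matches on either strand to 5 motifs, namely the TATA box (spelled TATAAA), the GC box (spelled GGGCGG), the CCAAT box (spelled CCAAT), the homeodomain core (spelled TAATTA) and the core of the cyclic AMP response element or CRE (spelled TGACG), none of which overlaps another in these windows.
Slc32a1: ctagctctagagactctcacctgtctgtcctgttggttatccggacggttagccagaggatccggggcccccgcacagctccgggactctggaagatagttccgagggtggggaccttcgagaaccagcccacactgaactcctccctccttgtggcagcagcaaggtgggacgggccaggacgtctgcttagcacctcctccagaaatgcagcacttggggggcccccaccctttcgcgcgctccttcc
Gabra3: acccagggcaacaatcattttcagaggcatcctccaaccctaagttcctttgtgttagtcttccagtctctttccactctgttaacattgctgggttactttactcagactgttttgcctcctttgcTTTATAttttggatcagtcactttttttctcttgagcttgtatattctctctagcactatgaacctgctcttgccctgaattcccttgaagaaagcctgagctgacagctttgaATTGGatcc
Gabrb2: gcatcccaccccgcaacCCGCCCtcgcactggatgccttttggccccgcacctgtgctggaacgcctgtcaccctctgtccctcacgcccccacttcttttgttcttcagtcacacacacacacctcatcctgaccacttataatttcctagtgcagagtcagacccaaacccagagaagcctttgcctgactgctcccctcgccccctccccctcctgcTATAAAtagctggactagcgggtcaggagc
Gabrq: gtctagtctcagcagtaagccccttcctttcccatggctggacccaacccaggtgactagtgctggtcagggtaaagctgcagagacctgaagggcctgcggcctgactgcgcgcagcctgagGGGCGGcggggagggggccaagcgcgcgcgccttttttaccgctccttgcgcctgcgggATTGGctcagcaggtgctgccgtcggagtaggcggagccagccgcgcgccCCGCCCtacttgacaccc
Among 27025 mouse promoters of the same length, 13% held the TATA box, 32.9% the GC box, 34.5% the CCAAT box, 4.9% the homeodomain core and 17.9% the CRE core. RefSeq entries were matched for 25 of the 27 members, of which 3 held the TATA box, 14 the GC box, 10 the CCAAT box, 1 the homeodomain core and 3 the CRE core. The Slc32a1 window, with 62.4% GC, held none of the 5, and 196 of its bases lie in an exon of Gm14204 on the other strand. The Gabra3 window, with 42.4% GC, held a match to the TATA box and a match to the CCAAT box. The Gabrb2 window lies within the annotated gene, which starts at 42419757, but in none of its exons, and held a TATA box match and a GC box match, and the Gabrq window held 2 GC box matches and a CCAAT box match. A match is a description of the letters only.

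In WT nuclei the listed genes spanned a wide range of levels, expressed as CPM per kb of merged exons (mean ± SD, n = 3). Gabarapl1, a trafficking and autophagy protein, was highest at 184.7 ± 34.9, followed by Gabra5, the extrasynaptic alpha subunit typical of hippocampus, at 112 ± 30.1, Gabra4 at 88.8 ± 3.57 and Gabbr1 at 76.6 ± 6.30. Each of these 4 lay above the next without overlap of the libraries. From Gad1 at 44.7 ± 7.86 down to Gad2 at 21.1 ± 2.56, the neighbours Gabrd, Gabrb2, Gabarap, Gphn, Gabra2, Gabrb1, Gabra3 and Gabbr2 each overlapped the gene next in order.

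Below these came Abat at 11.1 ± 1.71, Gabrg3 at 9.28 ± 1.03 and Gabarapl2 at 8.74 ± 1.59, which overlapped in turn. Slc32a1 stood at 5.22 ± 0.758 and Gabrg1 at 3.44 ± 0.238. Slc6a11, a GABA transporter typical of astrocytes, reached only 1.30 ± 0.481.

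The other subunits were near or below detection. Gabrq, the theta subunit, had 4 to 35 counts per library and passed the filter. Gabrr1, Gabrr2 and Gabrr3, the rho subunits known from retina, had 72, 58 and 11 counts over all 9 libraries. Gabra6, the alpha subunit of cerebellar granule cells, had 9 counts in 5 libraries, Gabre 3 counts in 2 libraries, and Gabrp none. These 6 did not pass the filter and were not tested, which left 21 tested members.

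**Figure D1:**
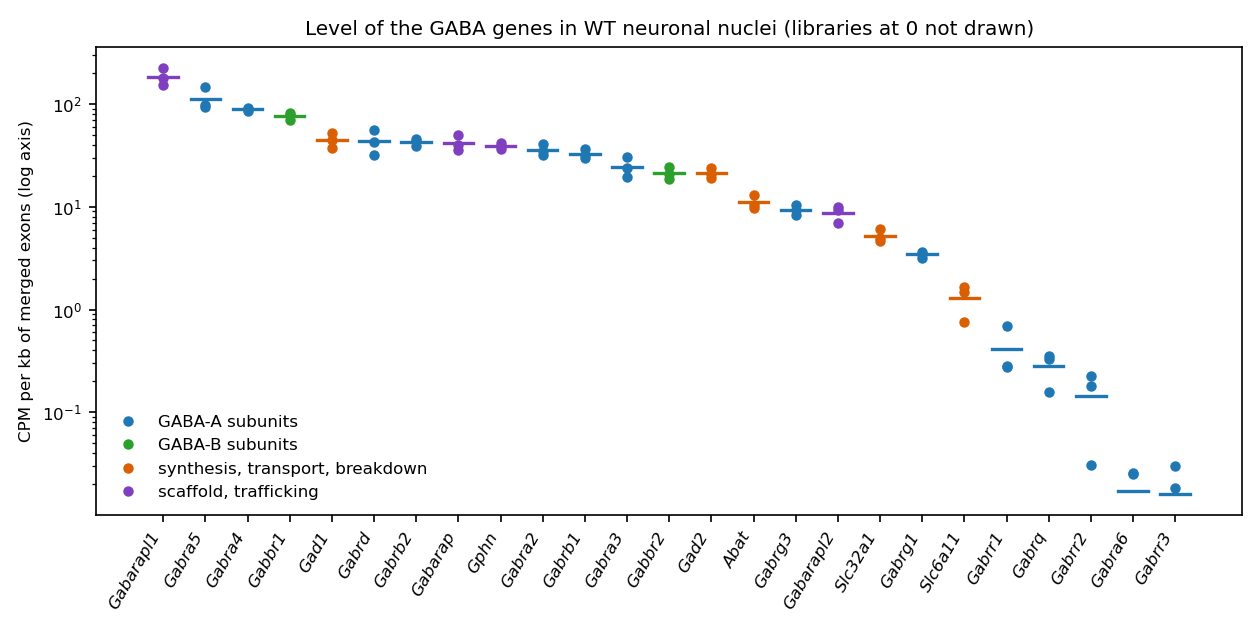
Level of the GABA genes in the 3 vehicle-treated WT libraries, as CPM per kb of merged exons on a log axis, ordered by mean; points are libraries and bars are means. Gabarapl1 leads at a mean of 184.7, 14 genes lie at 21.1 or above, and the rho subunits, Gabrq and Gabra6 lie below 1; Gabrp and Gabre had 0 counts in WT and are not drawn.

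The comparison of caffeine-treated with vehicle-treated Tg4-42 mice asks how long-term caffeine changes the hippocampal neuronal transcriptome. Slc32a1, the vesicular GABA transporter, fell by 47.6% with caffeine and was the only member called. Of the 21 members tested, 1 was called lower and 0 higher, with 0.881% of all tested genes called in either direction and 0.668% called lower. At an unadjusted p under 0.05, 8 members were lower and 0 higher, with 17% of all tested genes past it (9.82% lower and 7.15% higher). The 8 were Slc32a1, Gabra3, Gabrb2, Gabrq, Abat, Gad1, Gad2 and Gabrg1. The median log2 fold change was -0.21 over the members and -0.01 over all genes, and 16 of 21 members were below 0 as against 51.5% of all genes.

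The genes of GABA synthesis, loading and breakdown were all below 0 in this comparison, with a median log2 fold change of -0.42. For Slc32a1, WT libraries had 12.9, 13.9 and 16.98 CPM, vehicle-treated Tg4-42 libraries 16.3, 21.9 and 21.4, and caffeine-treated libraries 8.37, 13.1 and 9.82. All caffeine-treated libraries lay below all vehicle-treated Tg4-42 libraries, and 1 of them lay above the lowest WT library. Its log2 fold change was -0.93 ± 0.20 (SE, n = 3 per group; edgeR, adjusted p = 0.0462, 95% CI -1.36 to -0.50). The values rest on 114 to 342 counts per library. The adjusted p rose above the threshold in 5 of 6 fits that left out a library, with values up to 0.287, to 0.0668 with the sequencing lane as a covariate and to 0.817 with the libraries of lane 6 alone. The log2 fold change was -0.93 with lane as a covariate and -0.82 in lane 6 alone, a fit that leaves out library 3 of each group.

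Gad1, which encodes GAD67, had 402, 342 and 282 CPM in WT, 331, 339 and 439.7 in vehicle-treated Tg4-42, and 287, 279.7 and 276 in caffeine-treated Tg4-42 libraries. The caffeine-treated libraries were close together and all lower than those of vehicle-treated Tg4-42 mice, whereas 1 WT library fell among them. On the log2 scale the difference was -0.40 ± 0.15 (SE; edgeR, adjusted p = 0.184), and the gene was not called. Without vehicle replicate 3 the value was -0.24, and in the libraries of lane 6 alone -0.23.

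Gad2, which encodes GAD65, had 140.3, 121 and 111 CPM in WT, 129, 148 and 181 in vehicle-treated and 92.6, 136 and 113 in caffeine-treated Tg4-42 libraries. The second caffeine-treated library lay within the vehicle-treated range, so the groups overlapped. Caffeine over vehicle gave a log2 fold change of -0.43 ± 0.16 (SE; edgeR, adjusted p = 0.187), and it was -0.27 without vehicle replicate 3 and -0.26 in lane 6 alone. Per kb, the ratio of Gad1 to Gad2 was 1.96 to 2.20 in WT, 1.76 to 1.97 in vehicle-treated and 1.58 to 2.39 in caffeine-treated Tg4-42 libraries, with overlap.

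Abat, the GABA transaminase, had 101, 80.7 and 75.6 CPM in WT, 74.8, 96.5 and 93.1 in vehicle-treated and 61.7, 73.2 and 62.3 in caffeine-treated Tg4-42 libraries. The caffeine-treated libraries were lower than all 6 others. Against vehicle, the log2 fold change was -0.42 ± 0.14 (SE; edgeR, adjusted p = 0.145). Slc6a11 had 4.75 to 9.74 CPM in vehicle-treated and 5.83 to 7.12 in caffeine-treated Tg4-42 libraries, with a log2 fold change of -0.07 and a 95% CI of -0.71 to 0.57.

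**Figure D2:**
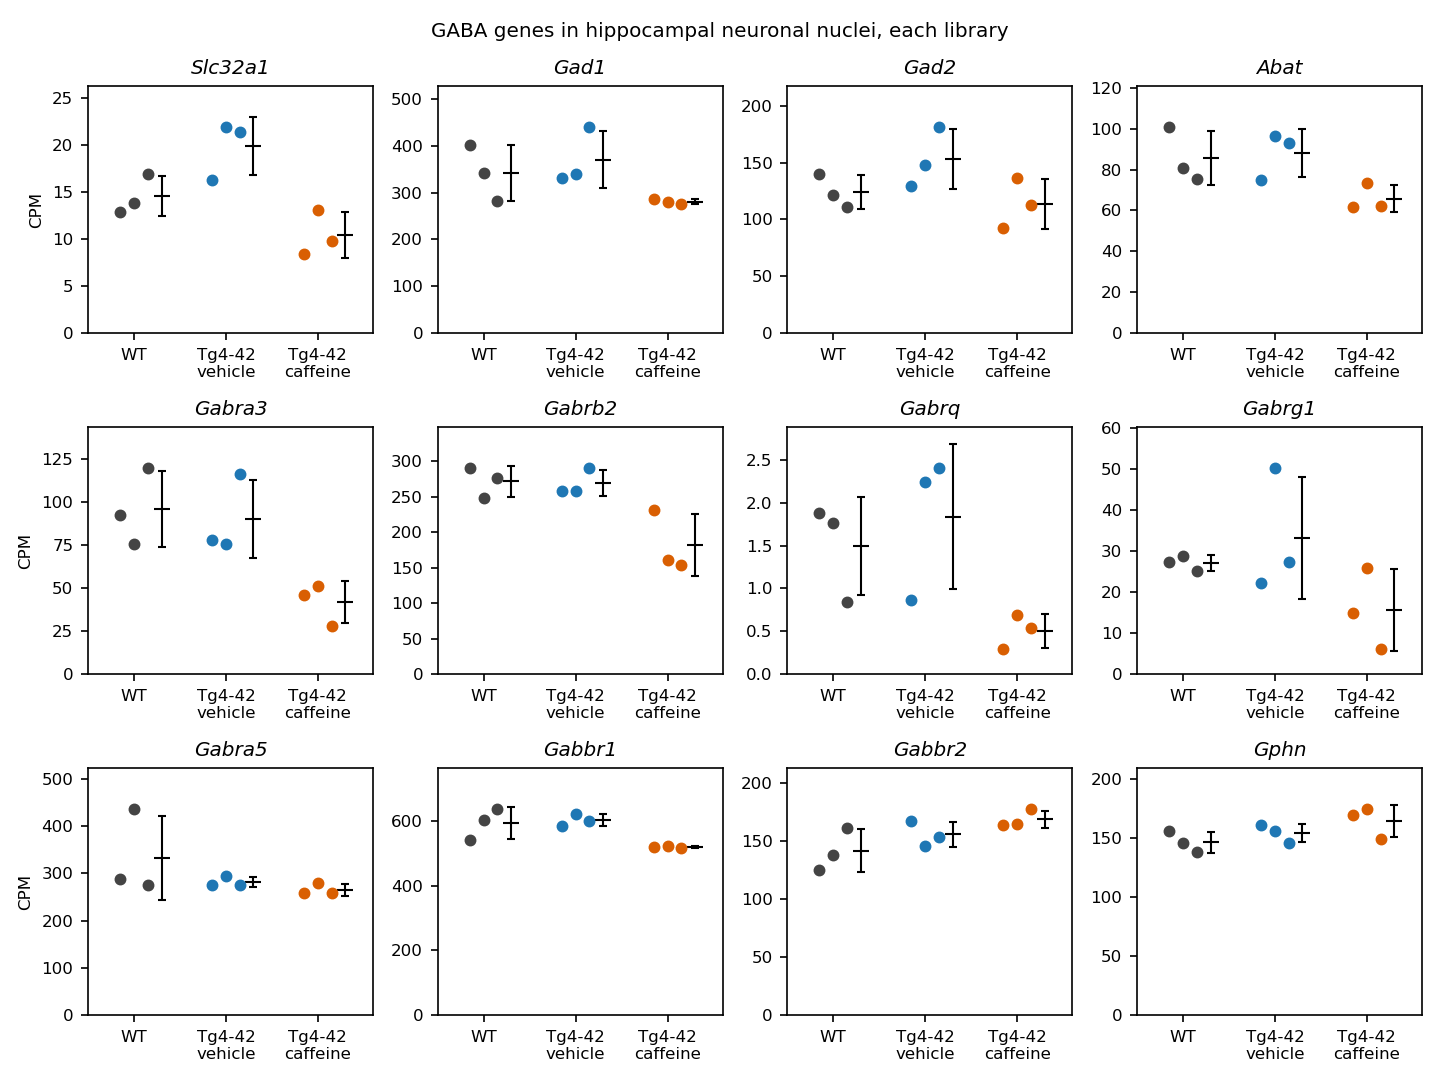
Level of 12 GABA genes in CPM (linear axes from 0) in WT, vehicle-treated and caffeine-treated Tg4-42 libraries; points are libraries, and the bar beside them gives the mean and SD (n = 3). The caffeine-treated libraries lie below both other groups for Gabra3, Gabrb2, Gabrq, Abat and Gabbr1, and below the vehicle-treated Tg4-42 group also for Slc32a1 and Gad1.

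Among the 10 GABA-A subunits tested, 9 were below 0 and 4 had an unadjusted p under 0.05, with 0 called. Gabra3, the alpha 3 subunit, had 92.6, 75.8 and 119.9 CPM in WT, 78.2, 75.9 and 116 in vehicle-treated and 46.2, 51.5 and 28.2 in caffeine-treated Tg4-42 libraries. Every caffeine-treated library was below every other library. Its log2 fold change was -1.10 ± 0.24 (SE; edgeR, adjusted p = 0.0562, 95% CI -1.62 to -0.58), just outside the threshold, and DESeq2 gave an adjusted p of 0.000549. In lane 6 alone the value was -0.64 (adjusted p = 0.781), and 0 of 6 fits without 1 library called the gene.

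Gabrb2, the beta 2 subunit found in many synaptic receptors, had 290.2, 248 and 277 CPM in WT, 258, 258 and 289.9 in vehicle-treated and 232, 160.5 and 153 in caffeine-treated Tg4-42 libraries. The caffeine-treated libraries lay below the other 6, with the first of them nearest to the rest. On the log2 scale the difference was -0.56 ± 0.15 (SE; edgeR, adjusted p = 0.0860). It was called in 4 of 12 alternatives, DESeq2 among them (adjusted p 0.00663 to 0.888, log2 fold change -0.65 to -0.38), and in 1 of 6 fits without 1 library, that without the first caffeine-treated one (adjusted p 0.0183 to 0.430, log2 fold change -0.78 to -0.45).

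Gabrq had the lowest level of the tested subunits and the lowest log2 fold change. Its libraries had 1.88, 1.77 and 0.839 CPM in WT, 0.864, 2.24 and 2.41 in vehicle-treated and 0.294, 0.690 and 0.537 in caffeine-treated Tg4-42 mice. The groups did not overlap, but the lowest vehicle-treated library held 8 counts and the highest caffeine-treated library 10. Caffeine over vehicle gave a log2 fold change of -1.87 ± 0.50 (SE; edgeR, adjusted p = 0.0880).

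Gabrg1, the gamma 1 subunit, had 27.3, 28.8 and 25.0 CPM in WT, 22.3, 50.2 and 27.2 in vehicle-treated and 14.9, 26.0 and 6.06 in caffeine-treated Tg4-42 libraries. The spread within each Tg4-42 group was wide and the groups overlapped. Against vehicle, the log2 fold change was -1.09 ± 0.48 (SE; edgeR, adjusted p = 0.294), and it was -1.67 without caffeine replicate 2, -0.71 without caffeine replicate 3 and -0.65 without vehicle replicate 2. Its neighbours on chromosome 5 had values nearer 0, with -0.23 for Gabra2, -0.10 for Gabra4 and -0.17 for Gabrb1.

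The subunits of extrasynaptic receptors showed no difference past the test. Gabra5 had 288, 436 and 275 CPM in WT, 275, 293 and 276 in vehicle-treated and 257, 279 and 258 in caffeine-treated Tg4-42 libraries. The second WT library was far above the rest, and the Tg4-42 groups overlapped, with a log2 fold change of -0.09 and a 95% CI of -0.42 to 0.24.

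Gabra4, the alpha 4 subunit, had 547, 557 and 515 CPM in WT, 514, 499.7 and 481 in vehicle-treated and 535, 403 and 454 in caffeine-treated Tg4-42 libraries. The caffeine-treated values lay on both sides of the vehicle-treated ones. Gabrd, the delta subunit that pairs with alpha 4 on dentate granule cells, had 92.4, 124 and 161 CPM in WT, 108, 127 and 129.7 in vehicle-treated and 152, 106 and 130.5 in caffeine-treated Tg4-42 libraries. All 3 groups overlapped, with a caffeine-against-vehicle log2 fold change of 0.09 (95% CI -0.29 to 0.47), the only value above 0 among the tested GABA-A subunits. Gabrg3 stood at -0.21 ± 0.13 (SE) and was not called.

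The GABA-B subunits had values of opposite sign. Gabbr1 had 542, 605 and 638 CPM in WT, 587, 623 and 603 in vehicle-treated and 522, 523 and 519 in caffeine-treated Tg4-42 libraries. Its caffeine-treated libraries were the 3 lowest of the 9, with a log2 fold change against vehicle of -0.21 ± 0.12 (SE; edgeR, adjusted p = 0.375).

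Gabbr2 had 125, 138 and 162 CPM in WT, 168, 146 and 154 in vehicle-treated and 164, 165 and 178 in caffeine-treated Tg4-42 libraries. The Tg4-42 groups overlapped, with a log2 fold change of 0.12 ± 0.12 (SE; edgeR, adjusted p = 0.676). The ratio of Gabbr1 to Gabbr2 per kb, chosen after the values were seen, was 3.73, 3.76 and 3.40 in WT, 3.01, 3.69 and 3.38 in vehicle-treated and 2.74, 2.73 and 2.52 in caffeine-treated Tg4-42 libraries. It was lower in all caffeine-treated libraries than in all others, and a two-sided exact permutation test against either group gave p = 0.1, the smallest that 3 against 3 allows. Any full separation of 3 from 3 gives that p, so it adds nothing to the separation already seen.

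The scaffold and trafficking genes did not differ past the test. Gphn had 156, 146 and 138 CPM in WT, 161, 156 and 145 in vehicle-treated and 169, 174 and 149 in caffeine-treated Tg4-42 libraries. The groups overlapped, with a log2 fold change of 0.09 and a 95% CI of -0.15 to 0.33. Gabarap, Gabarapl1 and Gabarapl2 had log2 fold changes of 0.01, -0.08 and 0.21, each with an interval that included 0.

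In all, 7 members did not overlap between the caffeine-treated and vehicle-treated Tg4-42 groups, all lower with caffeine, namely the 6 described as such above and Gabbr1. Among all tested genes, 12.6% were lower without overlap and 10.4% higher.

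**Figure D3:**
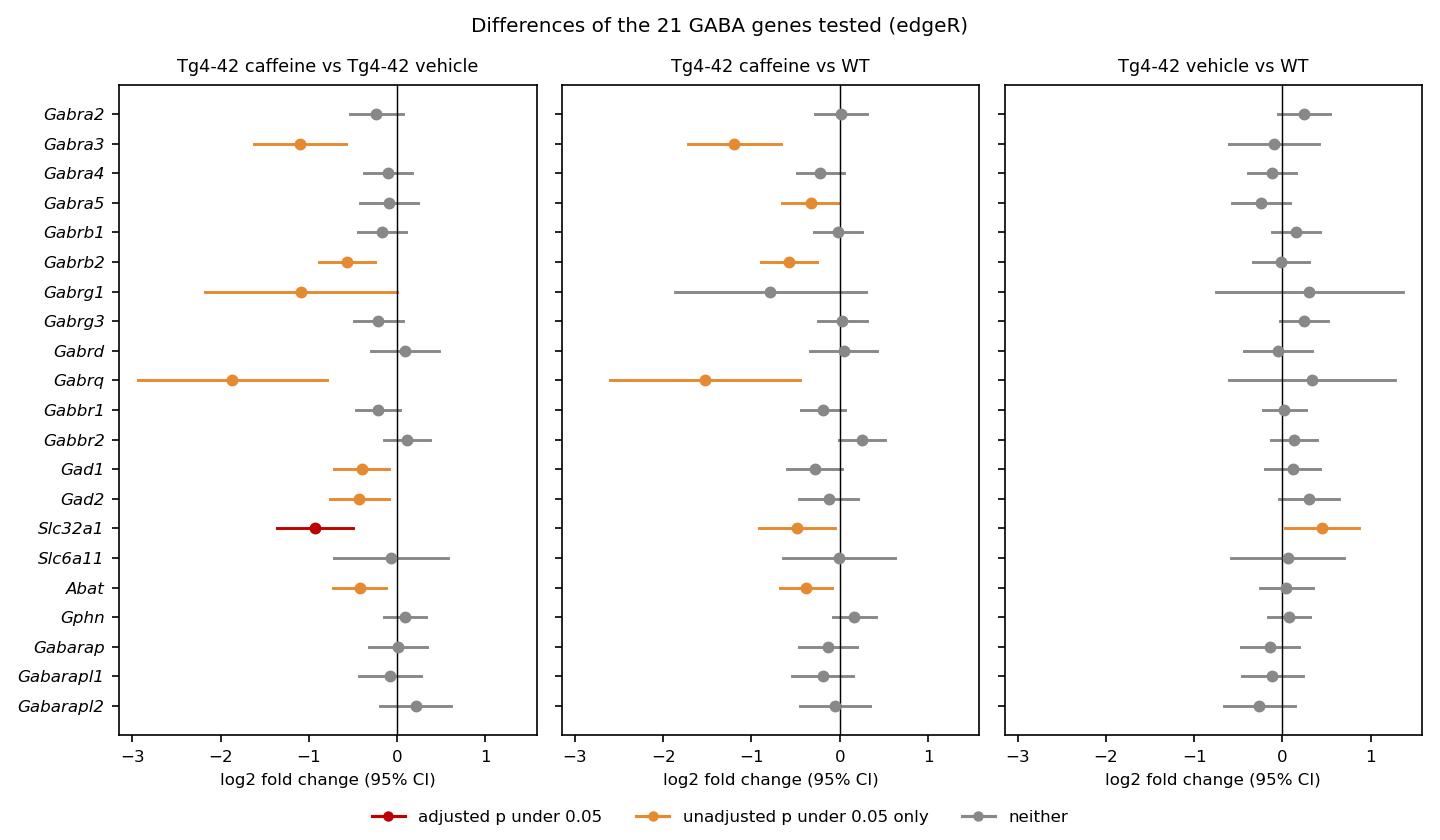
Log2 fold change with its 95% confidence interval (edgeR) for the 21 tested GABA genes in the 3 comparisons; red marks an adjusted p under 0.05, orange an unadjusted p under 0.05 only, grey neither. Slc32a1 at -0.93 is the only red point, in the comparison of caffeine with vehicle, and Gabra3 and Gabrb2 lie below 0 against both vehicle-treated groups.

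The comparison of caffeine-treated Tg4-42 with WT mice shares the caffeine-treated libraries with the one above, so the values are not independent of it. Of the 21 members, 0 were called by edgeR, with 0.415% of all genes called by edgeR (0.271% lower). DESeq2 called 2, Gabra3 and Gabrb2, and its share over all genes is not given here. At an unadjusted p under 0.05, 6 members were lower and 0 higher, with 15.4% of all genes past it (8.65% lower and 6.78% higher). Gabra3 stood at -1.19 ± 0.24 (SE; edgeR, adjusted p = 0.0558) and Gabrb2 at -0.58 ± 0.15 (adjusted p = 0.0907), both without overlap. Gabrq stood at -1.53 ± 0.51 (adjusted p = 0.167) and Abat at -0.38 ± 0.14 (adjusted p = 0.211), also without overlap. In lane 6 alone Gabra3 stood at -0.78, and without WT replicate 1 Abat stood at -0.25.

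Slc32a1 was nearer to the WT level than to the vehicle-treated Tg4-42 level, with a log2 fold change against WT of -0.48 ± 0.20 (SE; edgeR, adjusted p = 0.266), and of -0.31 in lane 6 alone. Gabra5 stood at -0.33 ± 0.15 (adjusted p = 0.320), and without the high second WT library its value was nearer 0, at -0.09. Gabbr2 was above WT in all caffeine-treated libraries, with a log2 fold change of 0.25 ± 0.12 (SE; edgeR, adjusted p = 0.339). Gad1 and Gad2 overlapped with WT, at -0.28 and -0.12. In total 5 tested members were lower and 1 higher without overlap, as against 9.65% and 9.14% of all genes.

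The comparison of vehicle-treated Tg4-42 with WT mice asks what the transgene alone changes. Of the 21 members, 0 were called by edgeR and 0 by DESeq2, with 0.0979% of all genes called by edgeR (0.0576% higher and 0.0403% lower). Slc32a1 alone had an unadjusted p under 0.05, as did 2.74% of all genes (1.65% higher and 1.09% lower), with a log2 fold change of 0.45 ± 0.20 (SE; edgeR, adjusted p = 1.00, 95% CI 0.03 to 0.87) and overlap between the groups. Gad2 stood at 0.30 ± 0.16 and Gad1 at 0.12 ± 0.15, while Gabra3, Gabrb2 and Abat lay at -0.09, -0.01 and 0.04. Gabrg3 was higher in all vehicle-treated Tg4-42 than in all WT libraries, at 0.24 ± 0.13, and Gabra4 lower, at -0.12 ± 0.13, as against 3.57% and 3.16% of all genes. Neither passed an unadjusted p of 0.05. The median over the members was 0.06, and 8 of 21 were below 0, as were 49.5% of all genes.

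Marker genes moved beside these members. The summed level of 22 interneuron markers, none of them a member, was 2081 to 2449 CPM in WT, 2096 to 2994 in vehicle-treated and 1528 to 1904 in caffeine-treated Tg4-42 libraries, and all 22 had counts in every library. The caffeine-treated libraries lay below all others. Against vehicle, 20 of the 22 were below 0, 3 were called lower (Kit, Nxph1 and Crhbp at -0.90, -0.91 and -1.03) and 0 higher, with a median of -0.53, as against 51.5% below 0 and 0.668% called lower over all tested genes. Fewer interneuron nuclei in a sort and less RNA per interneuron nucleus cannot be told apart in such bulk libraries, and the part of this marker difference in the results for Slc32a1, Gad1, Gad2, Abat and the receptor subunits was not tested.

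Levels per 1000 CPM of these interneuron markers, a scale chosen after the data were seen, are given next. The sum is weighted towards markers with high levels, so the scale is not an even measure of the list. With caffeine, Cck had a mean of 295 and Cnr1 of 289 CPM in a mean sum of 1660. Against vehicle, Cck stood at -0.09 and Cnr1 at -0.51. Slc32a1 stood at 6.21, 6.37 and 6.93 in WT, 6.99, 10.5 and 7.15 in vehicle-treated and 5.48, 6.89 and 6.35 in caffeine-treated Tg4-42 libraries. On this scale the caffeine-treated libraries overlapped with WT and the nearest lay just under the lowest vehicle-treated one. Gad1, Gad2 and Abat overlapped between caffeine-treated and vehicle-treated Tg4-42 mice, with means of 171 and 150.2 for Gad1, 68.3 and 62.2 for Gad2 and 39.7 and 36.4 for Abat, so that the caffeine-treated means were the higher ones. Gabra3 stood at 44.5, 34.8 and 49.0 in WT, 33.5, 36.2 and 38.9 in vehicle-treated and 30.3, 27.04 and 18.3 in caffeine-treated libraries, and the caffeine-treated libraries remained below all others. Gabrb2 overlapped on this scale, with means of 112 with caffeine and 110.2 with vehicle.

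**Figure D4:**
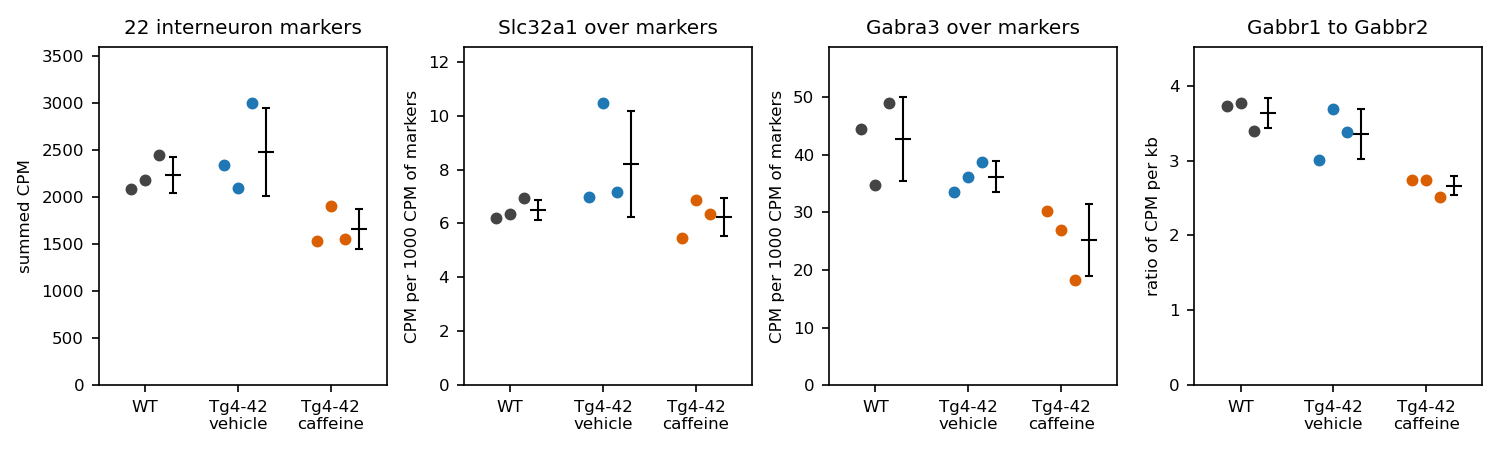
From left to right, the summed CPM of 22 interneuron markers, Slc32a1 and Gabra3 in CPM per 1000 CPM of those markers, and the ratio of Gabbr1 to Gabbr2 in CPM per kb, for WT, vehicle-treated and caffeine-treated Tg4-42 libraries; points are libraries, bars the mean and SD (n = 3). The marker sum was 1528 to 1904 CPM with caffeine and at least 2081 in the other groups, and the Gabra3 and Gabbr1 ratios were lower in the caffeine-treated libraries than in the other 6.

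Other cell types also differed. The sum of 12 dentate granule cell markers was 953 to 1250.5 CPM with caffeine, 516 to 852 with vehicle and 628 to 848 in WT, with 2 markers called higher against vehicle, while 8 CA1 pyramidal markers summed to 543 to 602 with caffeine and 603 to 706 with vehicle. The summed astrocyte markers were 435 to 568 CPM with caffeine and 509 to 630.4 with vehicle, and oligodendrocyte markers 273 to 387 and 381 to 534.9, both with overlap. Microglial sums, at 46.7 to 56.9 and 55.6 to 84.1, and subiculum and neocortex sums, at 342 to 461 and 454 to 571, also overlapped. The 5 choroid plexus markers summed to 86.9 to 126 CPM with caffeine, 136 to 369 with vehicle and 166 to 297 in WT, without overlap. Median log2 fold changes against vehicle were as low in these lists as the -0.53 of the interneuron markers or nearly so, with -0.60 for astrocyte (8 of 10 below 0), -0.51 for oligodendrocyte (9 of 10), -0.53 for subiculum and neocortex (8 of 10), -0.46 for microglia (8 of 8) and -1.21 for choroid plexus markers (4 of 5). Gabrd, known from dentate granule cells, overlapped between the groups, as given above, and the part of the cell type differences in the values of the GABA genes was not tested. As a share of the 4 well detected alpha subunits per kb (Gabra2, Gabra3, Gabra4, Gabra5), Gabra3 made up 9.41%, 6.61% and 12.8% in WT, 8.29%, 7.82% and 12.5% in vehicle-treated and 5.39%, 6.17% and 3.52% in caffeine-treated libraries. The caffeine-treated shares, again computed after the values were seen, were the 3 lowest (two-sided exact permutation test on log2 shares, p = 0.1 against either group, the smallest possible). Here too the p-value adds nothing to the separation already seen.

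Genes that work with these receptors were taken from 3 lists. Against vehicle, 17% of all tested genes had an unadjusted p under 0.05 (7.15% higher, 9.82% lower) and 0.881% were called, beside which the counts of these lists and of the glutamate receptors stand. Of 20 organisers of inhibitory synapses, all tested, 0 were called in any comparison. Against vehicle, 2 had an unadjusted p under 0.05 above 0 and 2 below, with a median log2 fold change of 0.06. Plcl1, which binds GABA-A receptors and takes part in their trafficking, stood at 0.61 ± 0.19 (SE; edgeR, adjusted p = 0.115), Mdga1, a membrane protein that restrains neuroligin, at 0.61 ± 0.19 (adjusted p = 0.125), and Clptm1, which holds GABA-A receptors inside the cell, at -0.47 ± 0.16 (adjusted p = 0.145).

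Of 10 auxiliary proteins and effectors of GABA-B receptors, all tested, 0 were called, and 2 had an unadjusted p under 0.05 above 0 and 2 below against vehicle. Kctd12, an auxiliary subunit that speeds desensitisation, stood at 0.65 ± 0.19 (SE; edgeR, adjusted p = 0.109) and Kcnj6, a potassium channel opened by the receptor, at 0.33 ± 0.13 (adjusted p = 0.235), both higher than vehicle in every caffeine-treated library. Kctd12b stood at -1.17 ± 0.50 (adjusted p = 0.250), with overlap. Its value rests on only 5 to 17 counts per caffeine-treated and 8 to 28 per vehicle-treated Tg4-42 library.

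Of 12 genes of chloride transport and GABA metabolism, 10 were tested and 0 called. Against vehicle, 1 had an unadjusted p under 0.05 above 0 and 4 below. Aldh5a1, which acts after Abat in GABA breakdown, stood at 0.43 ± 0.13 (SE; edgeR, adjusted p = 0.120), opposite in sign to Abat. Best1, an anion channel, stood at -0.85 ± 0.24 (adjusted p = 0.0959) and Slc38a1, a glutamine transporter, at -0.38 ± 0.12 (adjusted p = 0.135).

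Beside the GABA genes, 26 ionotropic and metabotropic glutamate receptor genes were counted in the same fit. Of the 23 tested, 1 was called lower with caffeine against vehicle and 0 higher, the called gene being Grm8 at -0.71 ± 0.15 (SE; edgeR, adjusted p = 0.0457). Their median log2 fold change was -0.11, compared with -0.21 for the GABA members, and 6 were lower and 1 higher at an unadjusted p under 0.05. Whether the lists differ was not tested.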

How the data were processed

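Per the labels and the study's methods, nuclei were stained for NeuN and sorted, RNA was amplified with SMART-Seq v4, and 50-base single-end reads were aligned by the authors with STAR to mm10. The deposited values are whole counts of reads on the exons of each gene from featureCounts, without normalization. Tool versions, annotation and strand setting are not given in the sources used here. Symbols, positions and merged exon lengths came from GENCODE M21, which paired 48349 of 48709 identifiers with symbols. Counts were filtered with filterByExpr (minimum count 10, minimum total 15), TMM-scaled and tested with edgeR 4.0.16 in R 4.3.3 (quasi-likelihood F test, robust) in 1 model of all 9 libraries with group contrasts. The common biological coefficient of variation was 0.163. CPM used TMM-scaled library sizes. Alternatives used DESeq2 1.42.0 and limma 3.58.1, among others. The fits were tested on simulated data with known changes. The members, lists and tests were chosen with earlier results of these data known. Values per library were printed for members with an unadjusted p under 0.05 in any comparison and for Gad1, Gad2, Slc32a1, Gabrd, Gabra4, Gabra5, Gabbr1, Gabbr2 and Gphn; from the 3 pathway lists, genes called or up to 3 with the smallest p under 0.05 were named. Libraries were numbered in accession order within each group. Deviations of same-numbered libraries from their group means correlated at 0.228, 0.144 and 0.162 between the vehicle-treated groups, though the labels state no pairing, and the replicate block changed no member's call.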

Additional observations from a re-analysis of the deposited data

How the results depend on the processing

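Between caffeine-treated and vehicle-treated Tg4-42 mice, the count of members called was 1 in the main fit, 3 with DESeq2, 5 without a filter on low counts, 2 with a mean count of at least 50, 3 with limma-voom and quality weights, 2 with a GC content correction, and 0 with lane as a covariate or with lane 6 only. Leaving out 1 library gave 0 to 1. It was 0 without caffeine replicate 3 or any 1 of vehicle replicates 1, 2 and 3, and without caffeine replicate 1 the called member was Gabrb2. Every called member was lower. Between caffeine-treated Tg4-42 and WT mice, where the main count was 0, it was 2 with DESeq2, 3 without a filter, and 1 with only the 2 groups, limma-voom or GC correction. Leaving out a library gave 0 to 2, the 2 without caffeine replicate 1. Between vehicle-treated Tg4-42 and WT mice it was 0 in every fit. The main fit called 0.881% of all tested genes against vehicle and 0.415% against WT. The share of all genes called in each of these alternative fits is not given here beside its member count. Whether a higher member count went with more calls over all genes cannot be read from these counts. The causes were not tested. The log2 fold change of Slc32a1 with caffeine stayed between -1.12 and -0.82 over 12 alternatives, 10 of which called it (adjusted p 0.000902 to 0.817), and between -1.13 and -0.80 with a library left out, where 1 of 6 fits called it. That of Gabra3 stayed between -1.14 and -0.64, called in 4 of 12. No called value reversed sign.

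The labels do not pair the libraries, and a library number as replicate block gave 1, 0 and 0 members called in the 3 comparisons, with 187, 82 and 16 genes over all. Same-numbered libraries correlated in their deviations from the group means at 0.163, 0.191 and -0.198 between the Tg4-42 groups and at -0.168, 0.00579 and -0.0999 between caffeine-treated Tg4-42 and WT. Between the vehicle-treated groups alone each library correlated best with its own number. Library 3 of each group was the only one on lane 7, so lane cannot be told apart from it. With 3 libraries a group, differences as small as those of Gad1 or Gabbr1 did not pass the adjusted threshold. Levels under 0.183 to 0.321 CPM, on unscaled library totals, lie below 3 counts.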

Other observations

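Gabrr1, a rho subunit too low to be tested, had 10 to 20 counts in the WT libraries, 3 to 7 in the vehicle-treated and 5 to 8 in the caffeine-treated Tg4-42 libraries. The WT levels were 1.57, 0.631 and 0.646 CPM and the caffeine-treated levels 0.587, 0.345 and 0.384, without overlap, while the vehicle-treated level of the first library, 0.756, lay within the WT range. The nearest WT and caffeine-treated libraries held only 10 and 8 counts. Among tested genes, 9.65% were lower with caffeine than in WT without overlap, a share not given for genes this low. Whether Gabrr1 differs between the groups was not tested. Gabrr2 was between 1 and 6 counts in WT and between 4 and 10 in the Tg4-42 libraries.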
